A study of Vachellia cornigera with 24 samples.

Results

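Receptor-like kinase genes were followed in extrafloral nectaries of the bullhorn acacia (Acacia cornigera), the sugar glands on its leaves that feed a resident colony of the ant Pseudomyrmex ferrugineus. They are 101 of the 12650 genes in the deposited table. A gene was taken when its annotated description named a leucine-rich repeat protein kinase, a leucine-rich repeat receptor, a leucine-rich receptor-like kinase, a cysteine-rich receptor-like kinase (CRK), a lectin protein kinase or a wall associated kinase. The choice used these words alone and no measured value. It gave 70 leucine-rich repeat genes, 21 lectin genes, 9 CRK genes and 1 wall associated kinase. The lectin genes comprise 12 with a Concanavalin A-like domain, 7 with an S-locus domain and 2 with no further name. Each acacia gene is listed under its closest Arabidopsis thaliana locus, so the gene names and known roles below are those of the Arabidopsis locus. Genes of tandem families, among them CRK and S-locus genes, may be assigned to a near relative, and their identity is uncertain. Of 36 well-known receptors that are in the table, 14 are members. The other 22, BRL2, PSKR1, EFR and PEPR1 among them, have descriptions worded otherwise.

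Receptor-like kinases sit in the plasma membrane, with a sensing domain outside the cell and a kinase inside. Leucine-rich repeat receptors bind peptides, brassinosteroids or microbial molecules and usually act with a co-receptor such as BAK1, which passes the signal to cytoplasmic kinases, MAP kinases and oxidases. Lectin and cysteine-rich kinases of Arabidopsis have been linked mainly to microbes, wounding and oxidative stress, and wall associated kinases bind pectin.

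The 24 libraries fall into 10 groups, each library pooling nectaries of several plants sampled in the field. In the time course, 9 am, noon and 3 pm had 3 libraries each, 2 pm had 1, and 3 am, titled as the second day, had 2. Among the ant treatments, 3 libraries came from plants without their ants for 2 days (ants removed) and 3 from the treatment that the labels call Gracilis replacement (Gracilis). Another 2 had gut contents applied, and the labels do not say whose. In 1 library the ants had been put back after 2 days (returned ants). The reference for all of these was 3 libraries taken at 8 am, which the labels call controls for the ant treatments. Genotype and plant age are not given, and a clock time is given for the returned ants only. Clock time and treatment therefore cannot be told apart, nor can time of day and day of sampling.

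Values are the authors' normalised counts, which summed to 21084266 to 32520511 per library with the 2 pm library highest. Whether they are corrected for gene length is not given, so changes are read between libraries. A gene said to be of high level or value has high normalised counts, which may also reflect its length. The nectary markers SWEET9 and CWINV4 were present in every library, at 2338 to 290122 and 5385 to 99011. SWEET9 was lowest at noon. Some libraries stood apart from their label. Sample 1 at 9 am was most like sample 3 at 3 pm over all genes, sample 2 at 9 am was most like the 2 pm library, and sample 3 at 9 am was most like sample 1 at 3 am. Sample 2 at 3 pm was most like sample 2 at noon (correlation across genes 0.988). Noon samples 1 and 3 (0.994) and ants removed samples 2 and 3 (0.993) were nearly identical, and the labels do not say whether the number of a sample marks a shared day or plant. In a bulk library, fewer cells of a type and less RNA per cell cannot be told apart.

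Of the 101 genes, 93 averaged 10 or more across the 24 libraries and were tested. All 8 left out were leucine-rich repeat genes, among them RLK7 (AT1G09970), the receptor of a peptide that primes defence, at 0 to 14 per library. The 93 tested genes had means of 10.8 to 12732, and their highest and lowest group means differed by a factor of 1.5 to 103. The steadiest was AT1G06840 (867 on average), and the widest range was that of PXC1 (AT2G36570). Together the members made up 0.440%, 0.404% and 0.447% of all summed values at noon and 0.248%, 0.273% and 0.271% in ants removed libraries, against 0.282%, 0.312% and 0.260% at 8 am. Noon libraries therefore held the largest share, with no overlap with either of the other groups. The group mean was highest at 2 pm for 39 of the 93 genes, in a single library that also had the highest mean for 46% of all genes tested. Noon held the highest mean for 21 members (22.6%, against 11.9% of all genes). The ants removed group held the lowest mean for 23 members, and the share of all genes lowest there was not computed.

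**Figure D1:**
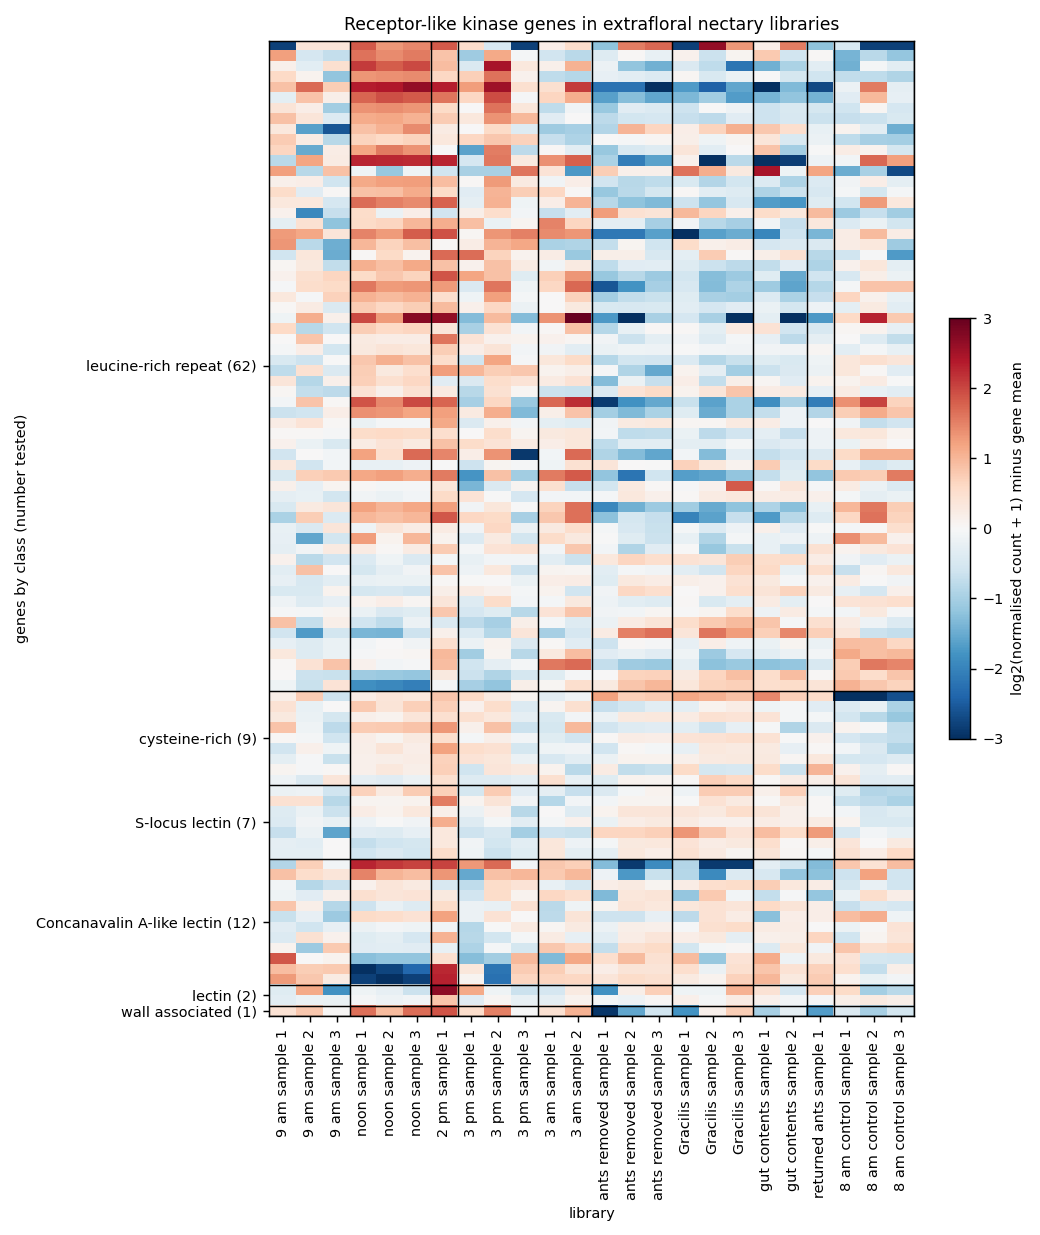
Each of the 93 tested receptor-like kinase genes (horizontal lines, grouped by class) in each of the 24 libraries (columns), coloured by log2(normalised count + 1) minus the gene's mean over all libraries. The noon libraries are alike and sit above the mean for many leucine-rich repeat genes, which in the ant treatments sit below it.

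The times of day were compared first. A moderated F test in limma over 9 am, noon, 3 pm, 3 am and 8 am called 36 of the 93 genes at an adjusted p under 0.05 (Benjamini-Hochberg over all genes tested), where 39.7% of all genes were called. The share among the members was thus near that of all genes. It called 25 of 62 leucine-rich repeat genes, 5 of 9 CRK genes, 4 of 7 S-locus genes and 2 of 12 Concanavalin A-like genes, and neither the other 2 lectin genes nor the wall associated kinase. The highest mean of the called members fell at noon for 18, at 8 am for 7, at 3 am for 5, and at 9 am and 3 pm for 3 each. Without the 9 am and 3 pm libraries, whose replicates differed most, the test over the remaining times called 47 members, where 53.6% of all genes were called.

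At noon 27 members rose and 9 fell against 8 am, where 19.7% of all genes rose and 17.7% fell. The median log2 fold change of the members was 0.48, and that of all genes was 0.09. In 63 members the noon and 8 am libraries did not overlap, where 65.7% of all genes did not. Of the leucine-rich repeat genes 18 rose and 5 fell, of the CRK genes 5 rose and 0 fell, of the S-locus genes 3 rose and 2 fell, and of the Concanavalin A-like genes 0 rose and 2 fell. Some markers of the nectary and of other cell types moved as well. The 2 light-harvesting genes of the photosynthesis list in the table, LHCA4 and LHCB5, summed to 452 to 542 at noon and 20226 to 34060 at 8 am. The 2 nectary genes summed to 18076 to 20296 at noon and 224162 to 280480 at 8 am. The 2 guard cell genes summed to 787 to 1020 at noon and 264 to 327 at 8 am. No marker of these lists was at 0. The 4 xylem genes summed to 11046 to 12056 at noon and 4648 to 12034 at 8 am, which overlap. The 2 phloem genes, SUC2 and APL, summed to 12259 to 13359 and 14942 to 17551. Over the 5 times SUC2 was lowest and APL highest at noon, and neither was called in the F test. The part of these markers in the difference was not tested.

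Leucine-rich repeat genes of no well-established role had some of the largest rises. AT1G67720 had 3708, 3818 and 3915 normalised counts at noon, 2415, 4560 and 1611 at 3 pm and 874 and 820 at 3 am, against 888, 864 and 794 at 8 am. Noon and 3 pm were both above every 8 am library, and the 3 am libraries were within the 8 am range. In log2 terms the fold change was 2.17 ± 0.36 (SE) for noon against 8 am (adjusted p = 0.000219, limma), and 1.62 for 3 pm against 8 am (adjusted p = 0.00229). It was -1.62 ± 0.40 for 3 am against 3 pm (adjusted p = 0.0116), a call lost without 3 am sample 1 (adjusted p = 0.0671) or 3 am sample 2 (0.0785).

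AT2G37050 was also highest at noon and 3 pm. Its values were 1157, 1198 and 1109 at noon, 675, 1382 and 1050 at 3 pm and 426 and 543 at 3 am, against 333, 346 and 390 at 8 am. All libraries of the other 3 times were above those of 8 am. For noon against 8 am the log2 fold change was 1.70 ± 0.27 (adjusted p = 0.000181, limma), and for 3 pm it was 1.48 (adjusted p = 0.000636). AT5G01950 had 1365, 1281 and 1364 at noon and 1319, 1496 and 1386 at 3 pm, against 500, 430 and 417 at 8 am. Noon and 3 pm libraries had about the same values, and all were above those of 8 am. Their log2 fold change was 1.58 ± 0.28 for noon (adjusted p = 0.000376, limma) and 1.64 ± 0.28 for 3 pm (adjusted p = 0.000322).

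Among the genes that fell at noon was TMK3 (AT2G01820), a transmembrane kinase of a family that takes part in auxin signalling. It had 150, 141 and 130 at noon, against 495, 338 and 716 at 9 am and 1110, 944 and 863 at 8 am. At 3 pm it had 269, 239 and 608, and at 3 am 560 and 771. Noon was below every other group of the time course. The log2 fold change was -2.78 ± 0.31 against 8 am (adjusted p = 8.14e-06, limma) and -1.81 ± 0.31 against 9 am (adjusted p = 0.00351). NILR1 (AT1G74360), a receptor needed for the response to nematodes, had 721, 697 and 681 at noon, against 2609, 2194 and 2687 at 8 am. Its groups did not overlap (log2 fold change -1.83 ± 0.22, adjusted p = 1.41e-05, limma).

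A pair of Concanavalin A-like lectin kinases was lowest at noon. AT1G70130 had 42, 60 and 80 at noon, against 781, 687 and 710 at 9 am and 586, 253 and 465 at 8 am. AT4G29050 had 18, 15 and 18 at noon, against 320, 231 and 156 at 9 am and 142, 115 and 124 at 8 am. In both genes every noon library was below every 9 am and 8 am library. Sample 2 at 3 pm, at 89 and 27, was close to noon, while the other 3 pm samples, at 525 and 698 and at 139 and 205, were not. Against 8 am the log2 fold changes were -2.78 ± 0.52 for AT1G70130 and -2.83 ± 0.49 for AT4G29050 (adjusted p = 0.000599 and 0.000335, limma). Both genes reached their highest value in the 2 pm library, at 1967 and 656, which has no replicate. The S-locus gene AT4G27290, of high level, fell less. It had 1443, 1550 and 1626 at noon, against 3042, 2372 and 2856 at 8 am, with no overlap (log2 fold change -0.83, adjusted p = 0.00119, limma).

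**Figure D2:**
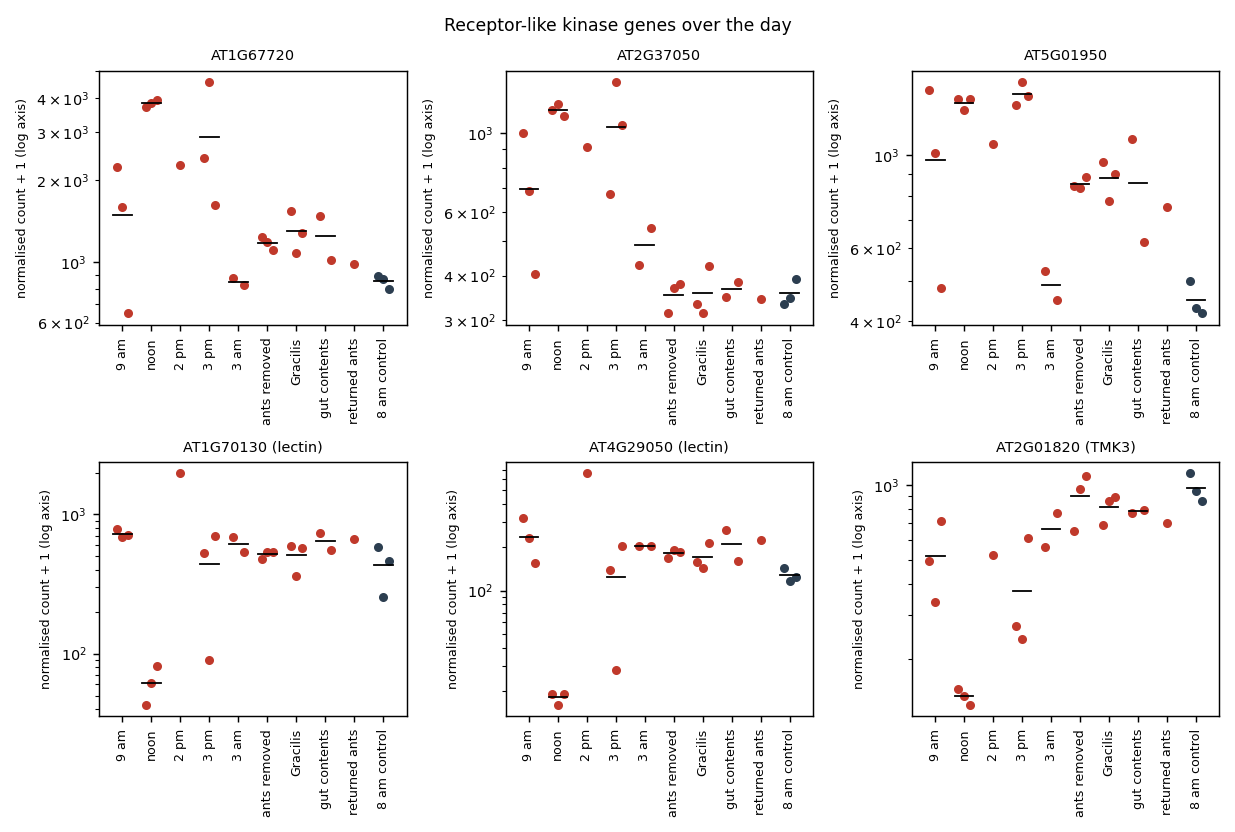
Normalised counts + 1 (log axis) of 6 receptor-like kinase genes in every library, by group, with 8 am in dark blue and short lines at the means of groups with more than 1 library. The 3 leucine-rich repeat genes in the top panels are high at noon and 3 pm, and both lectin kinases and TMK3 in the lower panels are lowest at noon.

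At 3 pm 10 members rose and 13 fell against 8 am, where 17.8% of all genes rose and 19% fell. The median log2 fold change was 0.06 for the members and 0.00 for all genes. Libraries of the 2 times did not overlap in 27 members, where 40.8% of all genes did not. Both nectary genes and both light-harvesting genes were called lower at 3 pm, with sums of 10269 to 25897 and 1060 to 11467, against 224162 to 280480 and 20226 to 34060 at 8 am. Of the 4 xylem genes 3 were called lower, with sums of 2913, 9682 and 2521 at 3 pm, against 6399, 12034 and 4648 at 8 am. The part of these markers in the difference was not tested. The rises comprised 5 leucine-rich repeat, 4 CRK and 1 S-locus gene, and the falls comprised 9 leucine-rich repeat, 2 S-locus and 2 other lectin genes. NILR1 had 974, 809 and 1050 at 3 pm, against 2609, 2194 and 2687 at 8 am, again with no overlap (log2 fold change -1.40 ± 0.22, adjusted p = 0.000176, limma). TMK4 (AT3G23750), another transmembrane kinase of the auxin pathway, had 304, 663 and 348 at 3 pm, against 1376, 1168 and 1227 at 8 am. Every 3 pm library was below every 8 am library (log2 fold change -1.60 ± 0.27, adjusted p = 0.000359, limma). AT5G56040, a receptor of root meristem growth factor peptides, had 1551, 1890 and 1297 at 3 pm, against 3377, 3296 and 2725 at 8 am (log2 fold change -0.998, adjusted p = 0.000668, limma).

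At 3 am 1 member rose and 1 fell against 8 am, where 0.269% of all genes rose and 0.563% fell. At an unadjusted p under 0.05 the count of members was 8, where 11.5% of all genes passed, and 24 members did not overlap, where 34.8% of all genes did not. CRK11 rose, as described with the CRK genes. AT5G56040 fell, with 1807 and 1385 at 3 am, below every 8 am library (log2 fold change -0.98 ± 0.21, adjusted p = 0.0313, limma). The count was 0 without either of the 3 am libraries (0.0163% and 0.0245% of all genes) and 1 without 8 am sample 1 or 2 (0.122% and 0.318%). It was 5 without the 9 am and 3 pm libraries in the fit, where 8.52% of all genes were called. The fall of AT5G56040 had an adjusted p of 0.0918 to 0.367 without 1 of these 4 libraries.

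Against 3 pm, 5 members rose and 5 fell at 3 am, where 10.3% of all genes rose and 9.26% fell, 19.6% together. In 27 members the 2 times did not overlap, where 41.1% of all genes did not. AT3G57830 had 687 and 749 at 3 am, against 151, 189 and 219 at 3 pm. The 3 am libraries were above all 3 pm libraries (log2 fold change 1.96 ± 0.31, adjusted p = 0.0017, limma). VRLK1 (AT1G79620), a vascular kinase linked to secondary wall thickening, had 363 and 511 at 3 am, against 54, 167 and 50 at 3 pm (log2 fold change 2.47 ± 0.54, adjusted p = 0.00678, limma). AT2G26730 had 671 and 904 at 3 am, against 358, 396 and 283 at 3 pm (log2 fold change 1.18 ± 0.21, adjusted p = 0.00272, limma). Neither of these genes overlapped between the times. In a fit to the 3 am and 3 pm libraries alone, all 8 calls of named genes in this comparison were lost, that of AT3G57830 among them. When the sample number was added to that fit as a block, 2 of the 8 were kept. The call of VRLK1 was lost without 3 am sample 2 (adjusted p = 0.0695). The count of 10 fell to 5 without 3 am sample 1 and to 2 without 3 am sample 2, where 4.68% and 4.77% of all genes were called. Markers moved in this comparison too. The 4 xylem genes summed to 6027 and 11676 at 3 am, against 2913, 9682 and 2521 at 3 pm, and 3 of them were called higher. Both light-harvesting genes and both nectary genes were called higher, with sums of 24044 and 34300 and of 170056 and 88476 at 3 am, against 1060 to 11467 and 10269 to 25897 at 3 pm. Their part in the changes of the receptor genes was not tested.

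From 9 am to noon, 14 members were called higher and 4 lower at noon, where 8.33% of all genes were higher and 4.03% lower. In 61 members the libraries did not overlap, where 39.1% of all genes did not. This comparison leaned on the scaling. All genes had a median log2 fold change of 0.21 as deposited and 0.01 after median-of-ratios scaling, and the members 0.56 and 0.36. After that scaling 7 members were called higher and 4 lower, where 8.5% of all genes were called. The count of 18 became 3 to 5 without sample 3 at 9 am (4) or without noon sample 1 (4), 2 (5) or 3 (3), where 1.14% to 1.79% of all genes were called. Without noon sample 3, 0 members were higher and 3 lower. The same counts came with near-identical libraries taken as 1 library each, where 0.775% of all genes were called. Without 9 am sample 1, 22 were higher and 3 lower, where 21.2% of all genes were called. Markers also differed between these times. The 2 light-harvesting genes summed to 452 to 542 at noon and 2383 to 23011 at 9 am, the 2 guard cell genes to 787 to 1020 and 237 to 419, and the 4 xylem genes to 11046 to 12056 and 3304 to 6019. Their part in the difference was not tested. MIK2 (AT4G08850), the receptor of the SCOOP peptides in defence, had 4419, 4705 and 4772 at noon, against 2233, 2307 and 1332 at 9 am, with no overlap (log2 fold change 1.28, adjusted p = 0.0114, limma). This call was lost without 9 am sample 3 (adjusted p = 0.0664) or noon sample 3 (0.0507). Its 8 am values, 1885, 2330 and 1643, were also below noon (log2 fold change 1.26 ± 0.27, adjusted p = 0.00156). AT1G70130 (-3.60 ± 0.52, adjusted p = 0.00171) and AT4G29050 (-3.66 ± 0.49, adjusted p = 0.00125) fell against 9 am, and these calls and that of TMK3 held in every alternative run.

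Of the 9 CRK genes, CRK3, CRK10, CRK11 and CRK25 are described here over both the times and the treatments. CRK11 (AT4G23190), whose Arabidopsis gene is induced by pathogens and reactive oxygen, had 85, 60 and 63 with the ants removed, 82, 76 and 67 with Gracilis and 100 and 60 with gut contents. It had 42, 47 and 45 at noon, 55, 44 and 38 at 3 pm and 29 and 33 at 3 am, against 3, 0 and 5 at 8 am. All libraries of other groups, from 23 in 9 am sample 3 upward, were above the 8 am libraries. The log2 fold change against 8 am was 3.98 ± 0.50 at noon, 4.00 ± 0.50 at 3 pm and 3.47 ± 0.56 at 3 am (adjusted p = 2.24e-05, 3.36e-05 and 0.00952, limma). It was 4.59 ± 0.50 with the ants removed, 4.71 ± 0.50 with Gracilis and 4.77 ± 0.56 with gut contents (adjusted p = 3.76e-05, 3.66e-05 and 9.52e-05). These fold changes depend on the value added before the logarithm, since the 8 am values are near 0. With 10 added in place of 1 they were 2.13 at noon, 2.14 at 3 pm, 1.71 at 3 am, 2.65 with the ants removed, 2.76 with Gracilis and 2.81 with gut contents. Without 8 am sample 2, which was at 0, and with 1 added, they were 3.22 at noon, 3.24 at 3 pm, 2.70 at 3 am, 3.83 with the ants removed, 3.95 with Gracilis and 4.00 with gut contents. The 3 am call was lost without 3 am sample 1 (adjusted p = 0.0984) or sample 2 (0.133). All these comparisons share the 3 libraries taken at 8 am.

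CRK10 (AT4G23180), one of the members of highest value, had 5257, 6032 and 5915 with the ants removed, 6802, 6982 and 7246 with Gracilis, 6920 and 5143 with gut contents and 5874, 5424 and 6158 at noon, against 3654, 3280 and 3134 at 8 am. No library of these groups overlapped with 8 am. The log2 fold change was 0.77 ± 0.16 with the ants removed, 1.06 ± 0.16 with Gracilis, 0.83 ± 0.18 with gut contents and 0.79 ± 0.16 at noon (adjusted p = 0.00184, 0.000178, 0.00335 and 0.000939, limma). CRK3 (AT1G70530) had 1216, 1689 and 1736 with the ants removed, 1638, 1892 and 1840 with Gracilis and 1833 and 1331 with gut contents, against 946, 783 and 625 at 8 am. It too was higher in every treated library (log2 fold change 0.98 ± 0.23, 1.21 ± 0.23 and 1.01 ± 0.26 in that order). CRK25 (AT4G05200) had 1115, 1351 and 1353 with the ants removed, 1406, 1522 and 1536 with Gracilis and 1545 and 1309 with gut contents, against 873, 894 and 966 at 8 am. Its change was the smallest of the 4 (0.48 ± 0.17, 0.71 ± 0.17 and 0.64, adjusted p = 0.0409, 0.00436 and 0.0202, limma). CRK28 (AT4G21400) rose at noon, with 563, 430 and 544 against 246, 283 and 169 at 8 am (log2 fold change 1.16, adjusted p = 0.00185, limma), but had 203, 223 and 262 with the ants removed, within the 8 am range. Without gut contents sample 1 the calls of CRK10 (adjusted p = 0.0822), CRK3 (0.149) and CRK25 (0.184) with gut contents were lost. The call of CRK25 with the ants removed was lost without any 1 of the 8 am libraries or without ants removed sample 2 or 3 (adjusted p = 0.0624 to 0.129), and with gut contents also without 8 am sample 1 (0.0505) or 2 (0.0605).

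**Figure D3:**
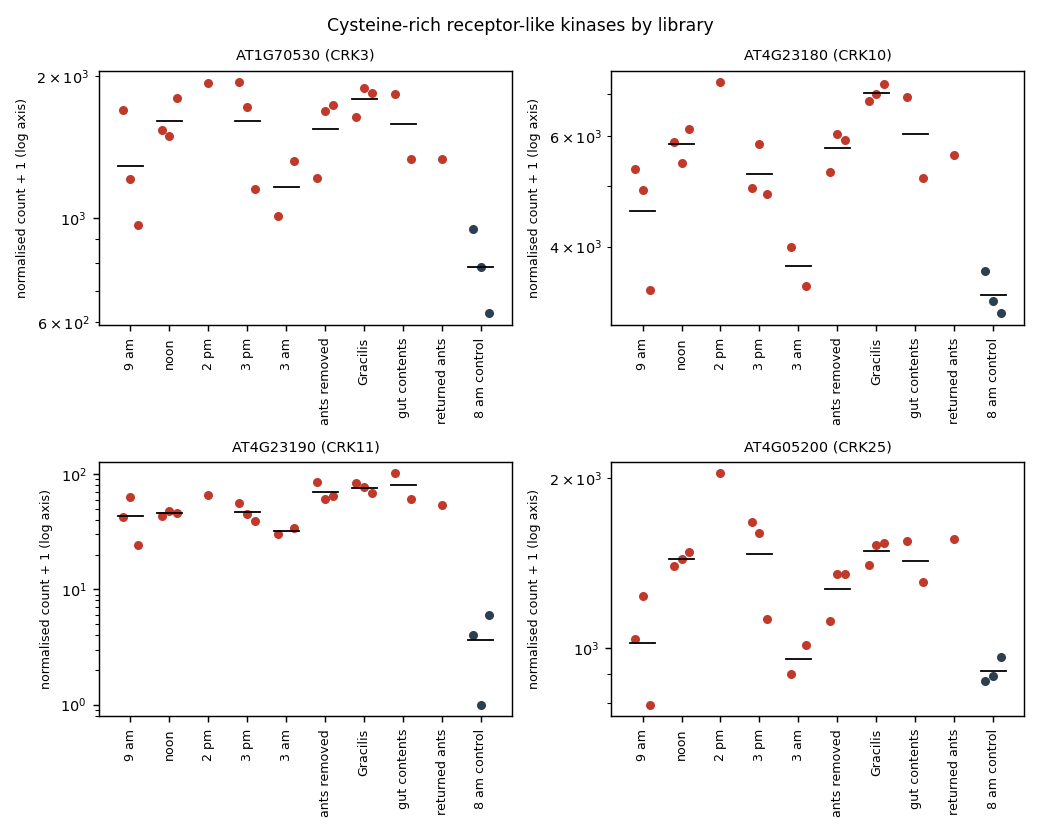
Normalised counts + 1 (log axis) of CRK3, CRK10, CRK11 and CRK25 in every library, by group, with 8 am in dark blue and short lines at group means. CRK11 lies at 23 or more in every other library and at 3, 0 and 5 at 8 am, and the other CRK genes differ from 8 am by smaller steps.

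In the ant treatments, members were called in both directions against 8 am. With the ants removed 12 members rose and 22 fell, where 11.6% of all genes rose and 15.9% fell. With Gracilis 17 rose and 21 fell, where 13.7% of all genes rose and 16.7% fell, 30.4% together. With gut contents 11 rose and 14 fell, where 9.12% of all genes rose and 12.9% fell. Of the leucine-rich repeat genes, 5 rose and 21 fell with the ants removed, 7 rose and 20 fell with Gracilis, and 3 rose and 14 fell with gut contents. In each treatment 4 of 9 CRK genes rose and 0 fell. Of the 7 S-locus genes, 3 rose with the ants removed, 4 with Gracilis and 2 with gut contents, and 0 fell. The Concanavalin A-like genes gave 0 rises and 1 fall, 2 rises and 1 fall, and 2 rises and 0 falls in the same order. The median log2 fold change of the members was -0.21 with the ants removed, 0.02 with Gracilis and -0.02 with gut contents, and that of all genes was -0.05, -0.03 and -0.01. Treated and 8 am libraries did not overlap in 51 members with the ants removed, 48 with Gracilis and 56 with gut contents, where 53.2%, 54.3% and 57.3% of all genes did not. The treatments share their 8 am libraries, so these counts are not independent. The rises with the ants removed leaned on single libraries. In that group 4 rose and 13 fell without 8 am sample 2, and 4 rose and 16 fell without ants removed sample 2. Without ants removed sample 1, 13 rose and 18 fell, where 24.4% of all genes were called. When near-identical libraries were taken as 1 library each, 4 rose and 14 fell, where 14.8% of all genes were called. Without 8 am sample 2 the counts of called members were 17 with the ants removed, 23 with Gracilis and 12 with gut contents, in place of 34, 38 and 25, where 15.9%, 19% and 12.4% of all genes were called. They were 20 and 21 without sample 2 and sample 3 of ants removed, 22 and 24 without sample 2 and sample 3 of Gracilis, and 7 without sample 1 of gut contents. Of all genes 17.5%, 17.4%, 19.7%, 21.2% and 7.5% were called in these, in the same order.

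**Figure D4:**
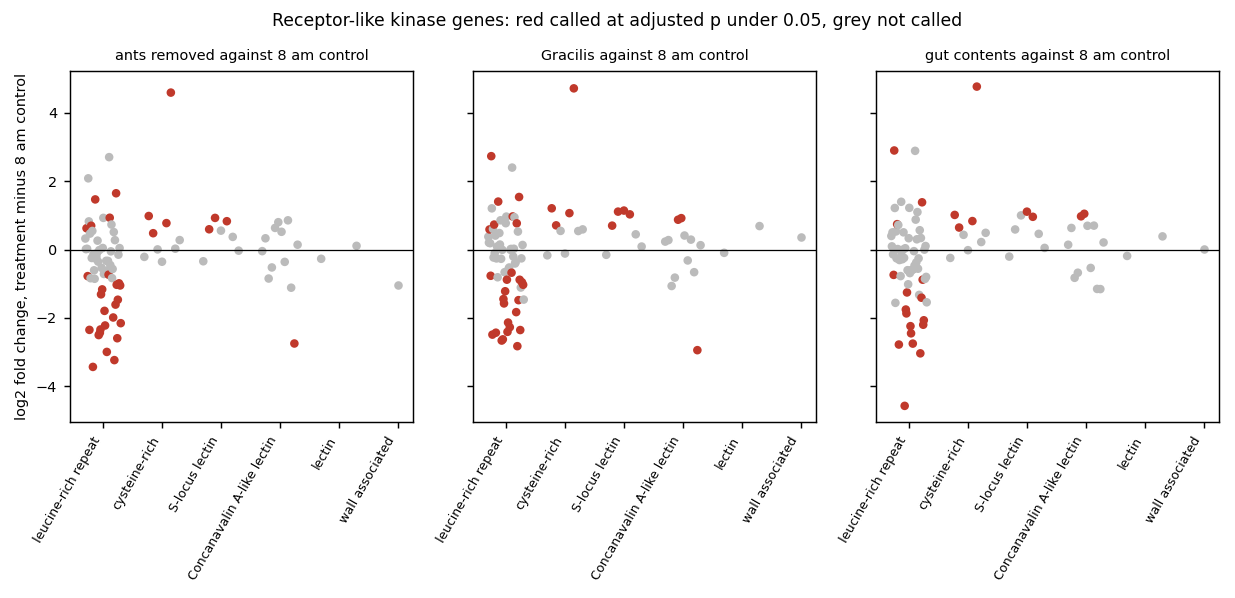
Fitted log2 fold change of each tested receptor-like kinase gene against the 8 am libraries, one panel per ant treatment, genes grouped by class, with red points called at an adjusted p under 0.05. The called CRK and S-locus genes lie above 0, and most called leucine-rich repeat genes lie below 0.

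The leucine-rich repeat genes that fell include VRLK1, PXC1 and PXY. VRLK1 had 14, 30 and 37 with the ants removed, 68, 35 and 56 with Gracilis and 29 and 55 with gut contents, against 281, 450 and 174 at 8 am. All treated libraries were below all 8 am libraries, and the returned ants library, at 25, was among the lowest. The log2 fold change was -3.43 ± 0.48 with the ants removed, -2.43 ± 0.48 with Gracilis and -2.78 ± 0.54 with gut contents (adjusted p = 0.000131, 0.00135 and 0.00186, limma). PXC1, a kinase needed for secondary wall formation in xylem fibres, had 10, 4 and 6 with the ants removed, 22, 0 and 11 with Gracilis and 0 and 2 with gut contents, against 19, 69 and 49 at 8 am. Gracilis sample 1 lay within the 8 am range, and the other treated libraries lay below it. Its log2 fold change was -2.50, -2.66 and -4.57 ± 1.01 in that order (adjusted p = 0.0469, 0.0325 and 0.00429, limma), and -1.64, -1.44 and -2.23 with 10 added before the logarithm in place of 1. PXY (AT5G61480), the receptor of the peptide TDIF in the vascular cambium, had 64, 49 and 45 with the ants removed, 74, 50 and 81 with Gracilis and 35 and 33 with gut contents, against 78, 279 and 142 at 8 am. It fell with the ants removed (-1.47, adjusted p = 0.0153, limma) and with gut contents (-2.07, adjusted p = 0.00503), and Gracilis sample 3 overlapped with 8 am. The call of PXY with the ants removed was lost without 8 am sample 2 (adjusted p = 0.106) or ants removed sample 2 (0.0506) or 3 (0.0588). The calls of PXC1 were lost without 8 am sample 2 or 3 or any 1 ants removed library (ants removed, 0.0554 to 0.166), without 8 am sample 2 or 3 or Gracilis sample 2 (Gracilis, 0.0874 to 0.207) and without gut contents sample 1 (0.0746). The log2 fold change of PXC1 was -3.57 without Gracilis sample 1 and -5.37 without gut contents sample 2.

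Xylem markers were lower in the same libraries. The 4 xylem genes of the marker list (MYB46, LAC4, CESA8 and CESA7) summed to 1140, 953 and 927 with the ants removed, 1592, 1330 and 1123 with Gracilis, 990 and 1242 with gut contents and 890 with returned ants, against 6399, 12034 and 4648 at 8 am. In each treatment 3 of the 4 were called lower. None was at 0, and MYB46, a master regulator of secondary walls, was at 2 to 15. The 2 phloem genes summed to 6749 to 8823 in the 3 treatments and to 14942 to 17551 at 8 am, and the 2 light-harvesting genes to 6090 to 8805 and 20226 to 34060. Of the nectary genes, CWINV4 had 5917 to 19730 in the 3 treatments and 69379 to 99011 at 8 am. SWEET9 had 148801 to 290122 and 125151 to 206764. The part of these markers in the falls of the receptor genes was not tested.

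Other leucine-rich repeat genes fell as far. AT5G58300 had 14, 20 and 26 with the ants removed, 27, 19 and 24 with Gracilis and 29 and 23 with gut contents, against 113, 172 and 94 at 8 am (log2 fold change -2.59 ± 0.34 with the ants removed, adjusted p = 7.9e-05, limma). AT3G57830 had 140, 110 and 105 with the ants removed, 186, 98 and 106 with Gracilis and 97 and 103 with gut contents, against 381, 690 and 636 at 8 am. Neither gene overlapped between treated and 8 am libraries. The log2 fold change of AT3G57830 was -2.22 ± 0.27, -2.14 ± 0.27 and -2.45 ± 0.31 in that order (adjusted p = 5.96e-05, 7.76e-05 and 0.000133, limma). AT3G02880 had 6, 6 and 9 with the ants removed, 2, 9 and 10 with Gracilis and 7 and 19 with gut contents, against 35, 59 and 35 at 8 am, again with no overlap (log2 fold change -2.63 ± 0.52 with Gracilis, adjusted p = 0.0013, limma). Without Gracilis sample 1 that value was -2.02, and with 10 added before the logarithm it was -1.65.

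GHR1 (AT4G20940), a guard cell kinase that takes part in closing stomata, had 6, 6 and 2 with the ants removed, 9, 5 and 10 with Gracilis and 2 and 12 with gut contents, against 28, 94 and 26 at 8 am. Every treated library was below 8 am. With the ants removed the log2 fold change was -2.99 ± 0.66 (adjusted p = 0.00298, limma). It was -2.41 without 8 am sample 2, and -1.84 with 10 added before the logarithm in place of 1. At noon GHR1 had 166, 171 and 202, above 8 am (log2 fold change 2.10, adjusted p = 0.0184, limma, and 2.69 without 8 am sample 2). The noon call was lost without noon sample 3 (adjusted p = 0.0569) or 8 am sample 1 (0.0722) or 3 (0.0792). The guard cell markers in the same libraries are given above for noon; in the 3 treatments they summed to 216 to 693, against 264 to 327 at 8 am.

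TMK4 had 492, 532 and 492 with the ants removed, 570, 293 and 443 with Gracilis and 500 and 551 with gut contents, against 1376, 1168 and 1227 at 8 am. All treated libraries were below 8 am, and the log2 fold change was -1.31, -1.58 and -1.25 in that order (adjusted p = 0.00215, 0.000522 and 0.00792, limma). The call with gut contents was lost without gut contents sample 1 (adjusted p = 0.0752). TMK3 had 653, 962 and 1080 with the ants removed, 688, 860 and 890 with Gracilis and 772 and 791 with gut contents, against 1110, 944 and 863 at 8 am, and it was not called in these comparisons. AT5G56040 had 1148, 1811 and 1709 with the ants removed, 1477, 2014 and 1622 with Gracilis and 1534 and 1867 with gut contents, below every 8 am library (log2 fold change -1.03 with the ants removed, adjusted p = 0.00074, limma).

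**Figure D5:**
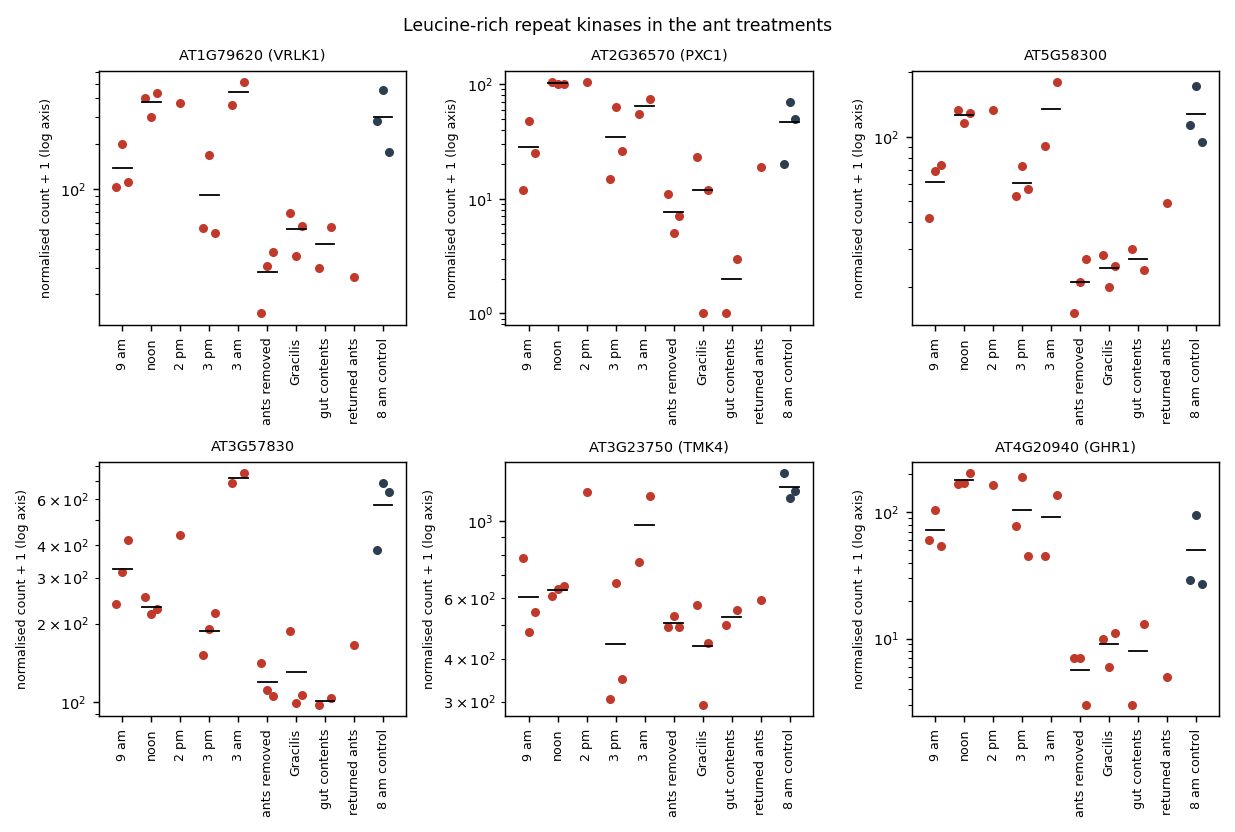
Normalised counts + 1 (log axis) of VRLK1, PXC1, AT5G58300, AT3G57830, TMK4 and GHR1 in every library, by group, with 8 am in dark blue and short lines at group means. The ant treatments lie below 8 am in all 6 panels, apart from PXC1 in Gracilis sample 1, and the noon libraries of VRLK1, AT5G58300 and GHR1 lie within the 8 am range or above it.

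Leucine-rich repeat genes that rose in the ant treatments were fewer. AT5G53320 had 172, 99 and 94 with the ants removed, 142, 112 and 80 with Gracilis and 105 and 90 with gut contents, against 33, 44 and 34 at 8 am. All treated libraries were above 8 am (log2 fold change 1.65 ± 0.41 with the ants removed, adjusted p = 0.00728, limma). AT5G01950 had 844, 834 and 884 with the ants removed and 965, 776 and 899 with Gracilis, also above 8 am (log2 fold change 0.93 and 0.97, adjusted p = 0.0194 and 0.014, limma). The call of AT5G01950 with the ants removed was lost without 8 am sample 2 or 3 or ants removed sample 2 or 3 (adjusted p = 0.0502 to 0.0641).

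Of the well-known receptors among the members, 13 were tested. Among growth receptors, BRI1 (AT4G39400), the brassinosteroid receptor, had 1162, 1036 and 985 with the ants removed and 1333, 949 and 1058 with Gracilis, against 1726, 1737 and 1827 at 8 am. It fell in both without overlap (log2 fold change -0.74 ± 0.20 and -0.68, adjusted p = 0.012 and 0.0171, limma). With gut contents it had 1534 and 1060 and was not called. PSY1R (AT1G72300), a receptor of sulfated growth peptides, had 1138, 1436 and 1304 with the ants removed, 1247, 1191 and 1539 with Gracilis and 1319 and 1338 with gut contents, against 851, 722 and 814 at 8 am. It rose in all 3 (log2 fold change 0.70, 0.73 and 0.74, adjusted p = 0.0133, 0.00924 and 0.0211, limma). FEI1 (AT1G31420), which takes part in cell wall synthesis, had 840, 522 and 529 with the ants removed, 769, 516 and 597 with Gracilis and 723 and 549 with gut contents, against 1102, 1112 and 955 at 8 am. It fell in each treatment without overlap (log2 fold change -0.78, -0.77 and -0.74, adjusted p = 0.00697, 0.00675 and 0.0211, limma). With near-identical libraries taken as 1 library each, the call of FEI1 with the ants removed was lost (adjusted p = 0.058, limma). In that setting 7 of the 19 calls of named genes with the ants removed were lost. Calls in these growth receptors were often lost without 1 library. For BRI1 this was ants removed sample 3 (adjusted p = 0.0506), and 8 am sample 3, Gracilis sample 2 or 3 with Gracilis (0.0512 to 0.0814). For PSY1R it was 8 am sample 2 or ants removed sample 2 with the ants removed (0.0626 and 0.0633), Gracilis sample 3 (0.0515), and 8 am sample 2 or either gut contents library with gut contents (0.0787 to 0.11). For FEI1 it was 8 am sample 1 or 2 or gut contents sample 2 with gut contents (0.052 to 0.196).

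Of the BAM receptors of CLE peptides, which keep meristems and vascular tissue in check, BAM1 (AT5G65700) had 1051, 1284 and 1258 with the ants removed and 1432, 1047 and 1181 with Gracilis, against 2376, 2626 and 2423 at 8 am. It fell in both without overlap (log2 fold change -1.05 and -1.03, adjusted p = 0.0138 and 0.0139, limma). At noon BAM1 had 3316, 3978 and 3485, above 1368, 1235 and 1885 at 9 am (log2 fold change 1.28, adjusted p = 0.0156, limma). BAM2 (AT3G49670) fell with Gracilis only among the tests made (-0.88, adjusted p = 0.0352, limma), and the differences between treatments in this gene were not called. That call was lost without any 1 of the 8 am libraries or without Gracilis sample 2 or 3 (adjusted p = 0.0502 to 0.181). Those of BAM1 were lost without 8 am sample 2 with the ants removed (0.0523), without 8 am sample 2 or Gracilis sample 2 with Gracilis (0.0506 and 0.0598), and without any 1 noon library for noon against 9 am (0.0519 to 0.0671). BAM3 (AT4G20270) had 57, 47 and 53 at noon, against 4, 12 and 10 at 8 am, with no overlap (log2 fold change 2.57 ± 0.67, adjusted p = 0.00656, limma, and 1.76 with 10 added before the logarithm). CEPR2 (AT1G72180), a receptor of C-terminally encoded peptides, had 35 to 144 over all libraries and was called in no comparison of 2 groups.

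Among defence receptors, FLS2 (AT5G46330), which binds bacterial flagellin, had 2518, 1976 and 1683 with Gracilis, against 1335, 1056 and 1203 at 8 am, with no overlap (log2 fold change 0.77, adjusted p = 0.0464, limma). This call was lost without any 1 of these 6 libraries (adjusted p = 0.0511 to 0.159). With the ants removed it had 2002, 1570 and 1565 (log2 fold change 0.51, adjusted p = 0.185) and with gut contents 2657 and 1172 (0.57, adjusted p = 0.208), which were not called. MIK2 had 1356, 1138 and 1178 with the ants removed, against 1885, 2330 and 1643 at 8 am (log2 fold change -0.66, adjusted p = 0.0742, limma). The values did not overlap, and the difference did not pass the threshold. The wall associated kinase WAK4 (AT1G21210), of a family that binds pectin, had 119, 72 and 120 at noon, against 27, 18 and 25 at 8 am. It rose at noon without overlap (log2 fold change 2.09 ± 0.61, adjusted p = 0.0133, limma). In the ant treatments its values of 4 to 62 spanned those of 8 am.

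The ant treatments were also compared with each other. Gracilis against ants removed gave 0 called members and 0% of all genes (limma), with 3 members at an unadjusted p under 0.05, where 0.62% of all genes passed. Weighting each library by its quality gave 3 called members, where 2.8% of all genes were called. In 9 of 93 members the libraries of these groups did not overlap, where 5.85% of all genes did not. Gut contents against ants removed gave 0 called members, where 0.0652% of all genes were called, with 1 member at an unadjusted p under 0.05. In 14 members these groups did not overlap, where 10.4% of all genes did not. Of all genes 0.905% passed the unadjusted threshold. Library weights also gave 0 here, where 0.155% of all genes were called. These results leave room for differences. For CRK10 the log2 difference between Gracilis and ants removed was 0.29 with a 95% interval of -0.04 to 0.62, and for CRK11 it was 0.12 with an interval of -0.93 to 1.18. For VRLK1 it was 1.00 with an interval of -0.01 to 2.01. Libraries of these treatments deviated together by number, and CRK10, CRK3, CRK25 and VRLK1 were each higher with Gracilis in 3 of 3 same-numbered pairs. Other members were so too, and the share of all genes that were was not computed. With a replicate block the interval was 0.06 to 0.53 for CRK10, -0.04 to 0.49 for CRK3, -0.01 to 0.47 for CRK25, -0.41 to 0.65 for CRK11 and -0.04 to 2.04 for VRLK1, and the adjusted p was 0.999 for each. More than 3 members had an unadjusted p under 0.05 there, among them FLS2 and CRK28. All of them were higher with Gracilis, and the share of all genes under that threshold was not computed. Picked after their values were seen, WAK4 (0.52 to 2.26), AT4G23310 (0.28 to 0.75) and AT2G28970 (0.28 to 0.91) were higher in 3 of 3 pairs. AT3G56370 (-1.49 to 0.27) was higher in 0 of 3. Their adjusted p was also 0.999 in that limma fit. Between gut contents and ants removed the intervals were -0.31 to 0.43 for CRK10, -1.01 to 1.36 for CRK11 and -0.48 to 1.79 for VRLK1. These are from the fit without a replicate block, though samples 1 and 2 of these treatments also deviated together. The single library with returned ants had 5590 for CRK10, 53 for CRK11 and 4 for GHR1, and it allows no test.

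Signalling partners of the receptors were followed as a list of co-receptors, other receptor kinases, cytoplasmic kinases, MAP kinases, oxidases and transcription factors, of which 30 were tested. Against 8 am, 6 of them rose and 7 fell with the ants removed, 5 rose and 5 fell with Gracilis, 3 rose and 4 fell with gut contents, and 6 rose and 4 fell at noon. Of all genes 27.5%, 30.4%, 22% and 37.4% were called in these comparisons, in the same order. BAK1 (AT4G33430), the shared co-receptor of BRI1, FLS2 and others, had 4878, 5815 and 6015 with the ants removed, 5969, 4229 and 4484 with Gracilis and 6024 and 5142 with gut contents, against 3185, 2439 and 2860 at 8 am. It was higher in every treated library (log2 fold change 0.98, 0.78 and 0.99, adjusted p = 0.0058, 0.0191 and 0.0138, limma). At noon BAK1 had 1865, 1852 and 1768, below 8 am (-0.62, adjusted p = 0.0476). BSK1 (AT4G35230), a cytoplasmic kinase that works with both BRI1 and FLS2, had 3924, 4518 and 4350 with the ants removed, against 2877, 2588 and 2536 at 8 am (log2 fold change 0.68, adjusted p = 0.0013, limma).

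RBOHF (AT1G64060), an NADPH oxidase that makes reactive oxygen outside the cell, had 953, 782 and 694 with the ants removed, against 2258, 2308 and 2821 at 8 am. The groups were far apart (log2 fold change -1.61, adjusted p = 0.000536, limma), and RBOHF also fell with Gracilis (-1.59, adjusted p = 0.000513), with gut contents (-1.62, adjusted p = 0.0016) and at 3 pm (-1.55, adjusted p = 0.00049). LLG1 (AT5G56170), a membrane-anchored partner of receptor complexes, had 401, 339 and 400 with the ants removed, against 1133, 800 and 667 at 8 am, with no overlap (log2 fold change -1.16, adjusted p = 0.00352, limma). LYK4 (AT2G23770), a receptor kinase that takes part in sensing chitin, had 92, 96 and 101 at noon, against 614, 468 and 784 at 8 am, and fell there (-2.65, adjusted p = 0.00131, limma).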

How the data were processed

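Nectary RNA was sequenced in pairs of short reads, as the labels' protocols state. The deposited table gives normalised counts, a score of no fixed unit, which the authors scaled and rounded. No source used here gives the scaling, the aligner, the assembly or how transcripts sharing a closest Arabidopsis locus were combined. Whole reads could not be recovered, so the depth in reads is unknown, and no length or sequence was available. Tests used log2(value + 1), which understates changes of genes with low values, for the 12264 of 12650 genes with a mean of at least 10 (386 left out). All 24 libraries entered 1 limma fit with a coefficient per group and a mean-variance trend (limma 3.58.1 in R 4.3.3; degrees of freedom: 14 residual, 3.657 prior). Contrasts and the F test were 2-sided, with Benjamini-Hochberg adjustment over all genes tested at 0.05. Adjusted p-values are from this fit, except where a left-out library, another setting or a replicate block is named. Errors are standard errors of the fitted log2 fold change. The p-values measure the spread between libraries of a group, pooled over the groups with more than 1 library. How far the nearly identical libraries at noon and with the ants removed are independent pools of plants is not known. The fit's steps were tested on simulated data.

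The named genes are, per comparison, up to 4 called rises and 4 called falls with the smallest adjusted p and no overlap between groups, the 10 smallest p in the F test, the 5 highest means and the well-known receptors. CRK28 was added after its values were seen. The members and lists were chosen with earlier results of these data known. Same-numbered libraries of Gracilis and ants removed deviated together (correlations 0.51, 0.22 and 0.34 across genes), and the count of called members there was 0 with and without a replicate block. So did samples 1 and 2 of gut contents and ants removed (0.36 and 0.28). The count there was also 0 with the block, where 0.0245% of all genes were called. Alternatives were another pseudocount, no filter, median-of-ratios scaling, near-identical pairs as 1 library, the compared groups alone with and without a replicate block, library weights and leaving out each library, where a lone remaining sample is assumed to vary like the other groups. Leaving out the 9 am and 3 pm libraries was chosen after seeing the data.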

Additional observations from a re-analysis of the deposited data

How the results depend on the processing

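Over 1589 alternative values of the 118 called results of named genes, 1345 kept their call, 244 lost it and 0 reversed, and 60 results held in all. Each count of called members is given with the share of all genes called in brackets or, for leaving out 1 library, in later sentences. With near-identical pairs as 1 library there were 22 (26.1%) in the F test, 1 (0.147%) for 3 am against 8 am, 3 (0.775%) for noon against 9 am, and, against 8 am, 18 (14.8%) with the ants removed and 16 (17.2%) with gut contents. With library weights there were, against 8 am, 61 (60.9%) for noon, 15 (26.1%) for 3 pm and 57 (56.8%) with the ants removed, and 3 (2.8%) for Gracilis against ants removed. With the compared groups alone there were 23 (24.3%) in the F test, against 8 am 58 (57%) for noon, 13 (17%) for 3 pm and 0 (0.253%) for 3 am, 10 (5.1%) for noon against 9 am and 0 (0.0245%) for 3 am against 3 pm. With the replicate block added, there were 12 (13.4%) for 3 pm and 1 (2.89%) for 3 am against 8 am, 6 (3.18%) for noon against 9 am and 2 (3.58%) for 3 am against 3 pm. The labels do not say that the sample numbers pair these samples. Same-numbered libraries deviated together at a correlation over 0.1 in each pair for 3 am against 8 am (0.1035 and 0.2877). The other comparisons of this blocked list did not reach that in all pairs. The other blocked counts, which were 52 (51.7%) for noon, 30 (28.8%), 35 (38.6%) and 20 (21.5%) for ants removed, Gracilis and gut contents, each against 8 am, and 28 (24.7%) in the F test, were within 1.5 times those of the full fit. Median-of-ratios scaling gave 11 (8.5%) for noon against 9 am. Without the 9 am and 3 pm libraries in the fit there were 5 (8.52%) for 3 am and 44 (42.1%) with gut contents, against 8 am. Leaving out 1 library gave 24 to 45 in the F test, 27 to 35 for noon, 18 to 24 for 3 pm, 0 to 2 for 3 am, 17 to 31 with the ants removed, 22 to 35 with Gracilis and 7 to 20 with gut contents, each against 8 am, 3 to 25 for noon against 9 am, and 2 to 11 for 3 am against 3 pm. Comparisons between ant treatments gave 0 to 0 (0% to 0.0734%). The shares of all genes were 30% to 44.5% in the F test and 1.14% to 21.2% for noon against 9 am. Against 8 am they were 27.7% to 31.2% for noon and 28.3% to 36.4% for 3 pm. They were 15.9% to 24.4% with the ants removed and 19% to 26.2% with Gracilis. Without 1 of the 8 am libraries they were 0.122% to 0.701% for 3 am and 12.4% to 19% with gut contents. Without 1 of the 3 pm libraries they were 16.9% to 23.2% for 3 am against 3 pm. The causes were not tested. CRK28 and the signalling partners were not recomputed under the alternatives. The depth in reads is unknown, so how far counting noise limits low genes such as PXC1 and GHR1 cannot be given.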

Other observations

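Some receptor genes differed more between samples of an ant treatment than between treatments; these genes were picked after their values were seen. CRK29 (AT4G21410) had 4788, 2408 and 2523 with the ants removed, 5986, 2786 and 2871 with Gracilis, 5883 and 2569 with gut contents and 8229 in the returned ants library, so that sample 1 of each treatment was the high one. The Concanavalin A-like lectin gene AT5G03140 was lowest in sample 1, with 482, 1536 and 1588 with the ants removed, 537, 2077 and 1150 with Gracilis, 737 and 1183 with gut contents and 540 with returned ants. The lectin gene AT3G53810 had 1319, 3020 and 3211 with the ants removed, 1485, 2093 and 2218 with Gracilis and 1624 and 2721 with gut contents. The leucine-rich repeat gene AT2G24130 had 165, 400 and 438 with the ants removed, 178, 426 and 334 with Gracilis and 227 and 377 with gut contents. The labels do not say what the sample numbers mark, and no test was made.

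A few other members rose at noon. AT5G63930 had 15366, 16350 and 15915 at noon, against 10059, 11898 and 10641 at 8 am, and rose there (log2 fold change 0.55, adjusted p = 0.0148, limma; 0.0571 without 8 am sample 1). AT2G33170 had 14878, 13619 and 14579 at noon, against 7196, 10551 and 7047 at 8 am (log2 fold change 0.82, adjusted p = 0.00502, limma). AT3G24240, a receptor of root meristem growth factor peptides in Arabidopsis, had 505, 447 and 529 at noon, against 249, 295 and 143 at 9 am (log2 fold change 1.17, adjusted p = 0.017, limma). That call was lost without 9 am sample 3 or any 1 noon library (adjusted p = 0.0546 to 0.088).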
